A study of Drosophila melanogaster with 12 samples.

Results

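The results below describe the heads of fruit flies (Drosophila melanogaster) taken after 12 h on food with pentylenetetrazole (PTZ) and levetiracetam (LEV), measured on 4 of the 12 arrays of the series. They were chosen by their labels and not by any measured value. Unmated Oregon-R wild-type males ate normal food or food with 8 mg/ml PTZ and 5 mg/ml LEV, in vials of 30 flies, and no other genotype or allele was involved. Each array set the pooled head RNA of treated flies against that of control flies kept for the same 12 h on normal food in a parallel set. The treated sample was in the dye Cy5 on replicates 1 and 2 and in Cy3 on replicates 3 and 4. The labels call the 4 arrays biological replicates, and each holds RNA of many pooled heads, so single flies cannot be seen. The age is labelled as 3 to 4 days in one place, while another adds a further period of maintenance, so it is left unsettled here. No arm with either drug alone is among these 12 arrays, so the effect of PTZ and that of LEV cannot be told apart. The other arrays used here for comparison are 4 of heads after 2 days on both drugs and 4 of heads at 7 days, after both drugs and then PTZ alone. Of the arrays at 7 days, only the titles of the dye-swapped ones, replicates 3 and 4, name the later PTZ step. The titles of replicates 1 and 2 name PTZ and LEV without it.

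PTZ blocks chloride channels gated by the inhibitory transmitter GABA and provokes seizures. LEV is an antiepileptic drug that binds a protein of synaptic vesicles in mammals. A fly head holds the brain with its neurons and glia, the compound eyes with their photoreceptors, the antennae, muscle and a layer of fat body, the insect tissue for storing lipid and sugar and for making blood proteins. In such bulk samples, fewer cells of a type and less RNA per cell cannot be told apart.

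Few spots had a value. The arrays of replicates 1 to 4 held 2091, 2813, 5213 and 7372 of 27648 spots, and the number of arrays limits the precision of every value below. Of 13824 probes, each printed as a pair of adjacent spots, 1283 had a value on at least 3 of the 4 arrays. These included 341 probes with 1 gene symbol, which stand for 335 genes, 247 of them on all 4 arrays.

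Every value is a log2 ratio centred on the median of its array, so 0 is the middle of that array and 1 is a doubling. The sources do not say whether the ratios of the dye-swapped arrays were already turned to treated over control. Both possibilities are therefore given: the turned reading takes the ratios as Cy5 over Cy3 and changes the sign of replicates 3 and 4, and the other reading keeps the sign as deposited. Replicates 1 and 2, called the Cy5-treated arrays below, read the same way in both. Values of single arrays are listed in the order of the replicates with the sign as deposited.

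The defining markers of the head's tissues were thinly measured. Of 7 photoreceptor markers on the array 4 had values on at least 3 arrays, namely the eye protein kinase C gene inaC, the scaffold gene inaD, the channel gene trpl and the arrestin gene Arr1. None of 4 neuronal markers on the array reached 3 arrays, and of 6 glial markers only the glutamine synthetase gene Gs2 did. Among the genes listed as fat body markers Yp2 and apolpp did, among the muscle markers Act88F and Act79B, and among the antennal markers Obp56d. The flies were males, so the yolk protein gene Yp2 may not mark fat body here. One midgut marker, Npc2b, did, and no marker of hemocytes, testis or male accessory gland did.

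Named genes agreed between arrays of the same dye orientation and hardly at all between arrays of opposite orientation. Across probes with 1 gene symbol, replicates 1 and 2 correlated at a Pearson r of 0.364 (Spearman rho 0.352, 284 probes) and replicates 3 and 4 at 0.314 (rho 0.390, 309 probes), with the sign as deposited. The 4 pairings of opposite orientation ran from -0.121 to 0.158. Correlations are across probes, which are not independent replicates, and all probes of an array share its hybridisation, its dye orientation and its normalisation.

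**Figure D1:**
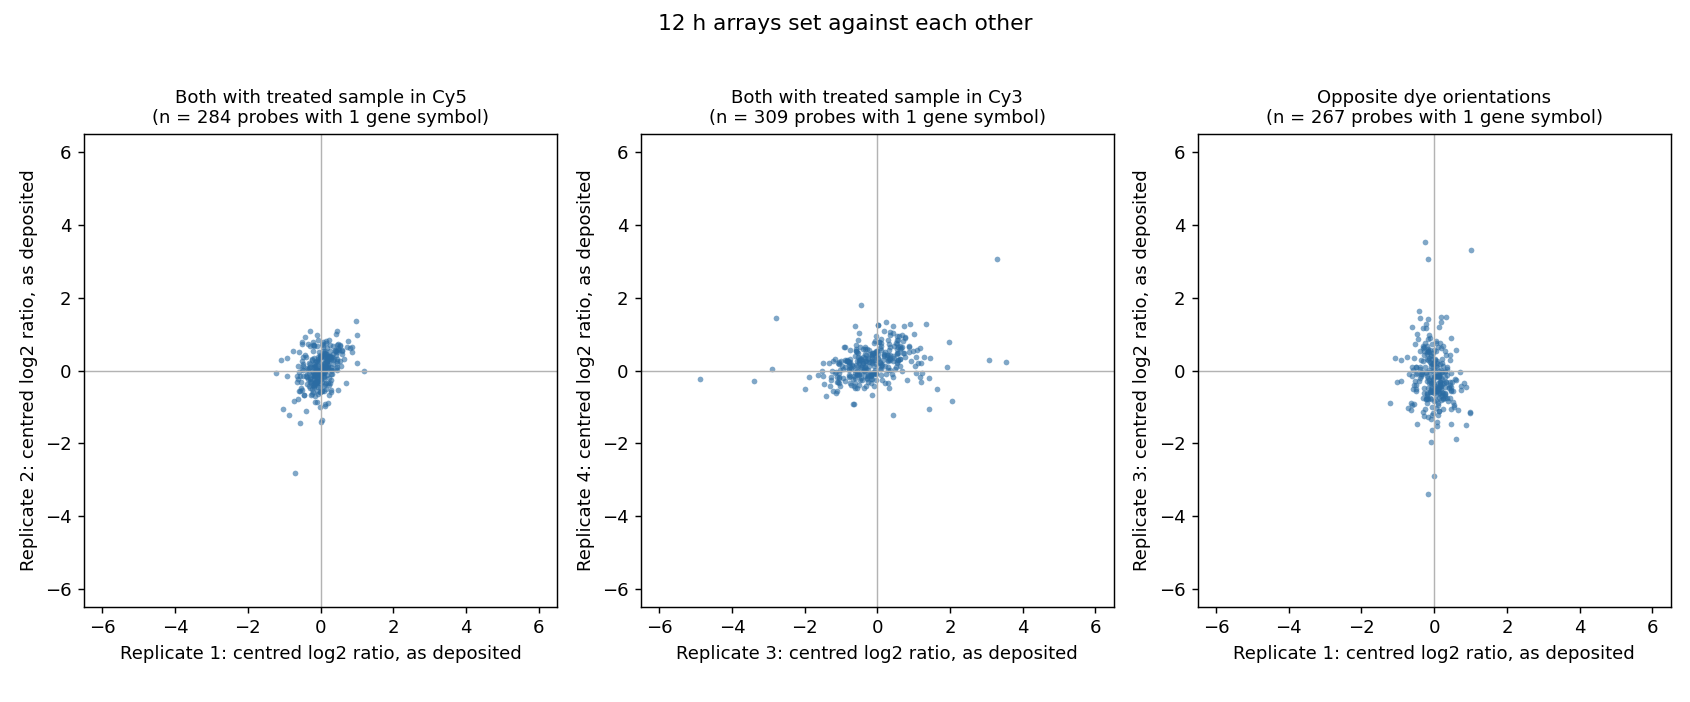
Centred log2 ratios of probes with 1 gene symbol on one array (x axis) against another (y axis), sign as deposited; each point is a probe. The clouds lean upwards in the panels of replicates 1 and 2 (284 probes, r = 0.364) and of replicates 3 and 4 (309 probes, r = 0.314), and show no such lean for replicates 1 and 3 (r = -0.121).

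Arrays of the same dye orientation resembled one another less across the 942 probes without a single gene symbol. Pearson r was 0.064 for replicates 1 and 2 (Spearman rho 0.192) and 0.044 for replicates 3 and 4 (rho 0.131). Pairings of opposite orientation ran from -0.051 to 0.140 (rho -0.031 to 0.22), highest for replicates 2 and 4, so the same orientation did not stand out here. The SD across these probes was wider, at 1.56, 1.29, 1.44 and 1.09 on the 4 arrays against 0.366, 0.502, 0.858 and 0.487 for probes with 1 symbol. Replicate 3 stood apart in its spread among the named probes, and 40.8% of its duplicate spot pairs differed by over 1 log2 unit, against 19.1% to 24.6% on the other arrays. The middle of the named probes also lay off 0 on the dye-swapped arrays: 125 of 318 genes were above 0 on replicate 3 and 216 of 320 on replicate 4, with median ratios over genes of -0.16 and 0.22. Group values on these 2 arrays are to be read against those medians.

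Correlations of the 12 h arrays with those of the later times were low on average but uneven. Same-dye pairings of a 12 h array with a 2 d array had a mean r of 0.156 across probes with 1 symbol, and those with a 7 d array had 0.245, each over 8 pairings with as few as 74 and 49 probes. For opposite dyes the means were 0.0006 within 12 h, 0.0708 with 2 d and 0.161 with 7 d. Replicate 4 correlated at 0.712 with replicate 3 of 7 d (112 probes, same dye) and at 0.559 and 0.358 with replicates 1 and 2 of 7 d, of the opposite dye (51 and 116 probes). Replicate 2 reached 0.391 with replicate 3 of 7 d and replicate 1 reached 0.426 with replicate 4 of 2 d, both of the opposite dye. Of these 5 values, 4 were above the highest within 12 h, 0.364.

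The comparison of treated with control heads asked which transcripts differed early on both drugs. No probe passed limma's test of a mean other than 0 at an adjusted p of 0.05, with 0 of 1283 called in each reading (0.0%). At an unadjusted p under 0.05 there were 58 probes in the turned reading and 103 in the reading as deposited, and the smallest adjusted p was 0.518 and 0.443. A statistic of the kind the authors named (SAM, a mean over its standard error with an added constant) called 0 probes in each reading too. The genes below are therefore described by their values, and none of them is shown to have changed.

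With the arrays centred, a sign shared by all 4 was about as common in one reading as in the other. In the turned reading 168 of 981 probes that every array measured kept 1 sign throughout (17.1%), 72 above 0 (7.34%) and 96 below (9.79%). With the sign as deposited there were 163 (16.6%), 91 above (9.28%) and 72 below (7.34%). Among the 252 of these probes with 1 symbol, 53 had the same sign in the turned reading (21.0%) and 38 as deposited (15.1%). This balance rested on the centring: without it the shares were 32.9% turned and 3.17% as deposited.

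**Figure D2:**
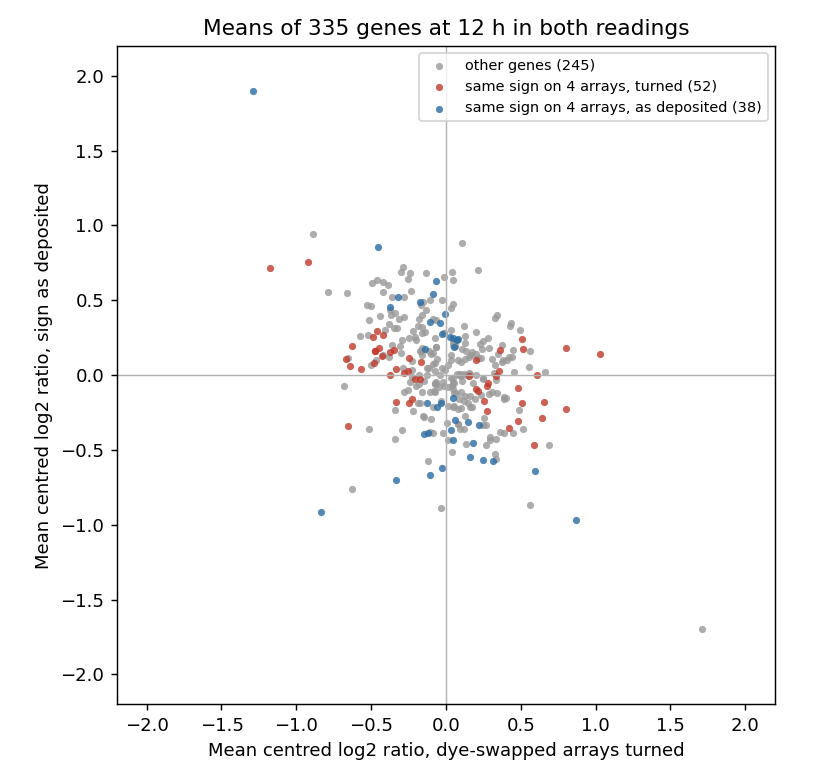
Mean centred log2 ratio of each of the 335 genes at 12 h with the dye-swapped arrays turned (x axis) and with the sign as deposited (y axis). Red points are the 52 genes of the same sign on all 4 arrays in the turned reading and blue points the 38 genes of the same sign as deposited; most genes lie within 1 of 0 on both axes.

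In the turned reading, the named genes with the smallest p above 0 included a mitochondrial ribosomal protein gene, an eye kinase gene and a photoreceptor protein gene. mRpS34 (CG42648), which encodes a protein of the small mitochondrial ribosomal subunit, had ratios of 0.98, 1.36, -1.14 and -0.63. The ratios were high in the Cy5-treated arrays and low in the others as deposited, so that the sign was the same on all 4 once turned. Its mean was 1.03 ± 0.31 (SD, n = 4 arrays), 2.04-fold, with limma's adjusted p at 0.703, and as deposited it was 0.14 ± 1.22. inaC (CG6518), the eye-specific protein kinase C that ends the light response, had 0.14, 0.81, -1.11 and -0.57. Its mean was 0.66 ± 0.41 turned and -0.18 ± 0.84 as deposited (n = 4 each). rtp (CG10233), or retinophilin, a photoreceptor protein, had 0.47, 0.74, -1.05 and -0.17, for a mean of 0.61 ± 0.38 turned. Both eye genes were highest, once turned, on replicate 3, the array of widest spread.

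RpL15, of the large cytosolic ribosomal subunit, followed with 0.74, 0.63, -0.43 and -0.25. UGP, the enzyme that makes UDP-glucose for glycogen and glycans, had 0.87, 0.64, -0.46 and -0.08. These genes had their higher values on the Cy5-treated arrays, at means of 0.69 and 0.75. The P450 gene Cyp313a1 had 0.60, 0.56, -1.89 and -0.17, so replicate 3 held most of its mean of 0.81 ± 0.75. Lamp1, a lysosomal membrane protein gene, and Apt1, an acyl-protein thioesterase gene, had turned means of 0.51 ± 0.37 and 0.48 ± 0.34 (n = 4). CG11089 had 0.99, 0.97, -1.17 and -0.07, and CG8329 had 0.46, 0.26, -1.47 and -0.38, with turned means of 0.80 ± 0.50 and 0.64 ± 0.56. In the reading as deposited, inaC, rtp, Cyp313a1, CG8329, Lamp1 and Apt1 lay below 0.

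At the other end of the turned reading stood Nckx30C (CG18660), which exchanges sodium for calcium and potassium across the membrane of photoreceptors and neurons. Its ratios were -0.45, -0.67, 0.87 and 0.67, for a mean of -0.67 ± 0.17 turned and 0.11 ± 0.78 as deposited (n = 4). All 4 arrays had similar sizes, with opposite signs in the 2 dye orientations. Tdg, a thymine DNA glycosylase gene of base excision repair, was as even, at -0.51, -0.53, 0.74 and 0.47. DopEcR, a receptor for dopamine and ecdysteroids, had -0.23, -0.65, 1.28 and 0.36 and sut2, a sugar transporter gene, had -0.60, -0.57, 1.21 and 0.20. Both had their largest size on replicate 3. Gyf, a regulator of translation and autophagy, had -0.56, -1.43, 0.35 and 0.28, and it remained below 0 as deposited, at -0.34 ± 0.84. The remaining genes of this end by the same rule were PIG-O, of GPI-anchor synthesis, Gbs-70E, a glycogen-targeting subunit of protein phosphatase 1, the kinase gene Asator, CG2656 and CG33060, with turned means from -0.49 to -0.43. These 5 lay above 0 in the other reading, at 0.083 to 0.25, and also in the turned reading without centring, at 0.019 to 0.077. Adjusted p-values from limma for the 20 genes of both ends lay between 0.703 and 0.867.

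With the sign as deposited, the set of genes was another one. CtBP (CG7583), a transcriptional corepressor, had ratios of -1.02, -1.05, -0.31 and -0.42. All 4 arrays were below 0, and the Cy5-treated ones lay furthest from it. Its mean was -0.70 ± 0.39 (n = 4), with limma's adjusted p at 0.592, and -0.33 ± 0.81 once turned. CtBP was the only one of the named genes to lie past 1 log2 unit with the same sign on both Cy5-treated arrays, where 32 of 1097 probes were below -1 (2.92%) and 31 above 1 (2.83%). Pka-R1, a regulatory subunit of cyclic AMP-dependent kinase, and pAbp, the poly(A)-binding protein gene, were the most even of this end. They had -0.53, -0.48, -0.29 and -0.24, and -0.29, -0.48, -0.61 and -0.35. Unc-115b, an actin-binding protein gene, had -0.72, -0.83, -1.04 and -0.08 and lay near 0 on replicate 4.

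Picot, a phosphate cotransporter gene, had -0.70, -2.81, -0.10 and -0.05, and replicate 2 held most of its mean of -0.92 ± 1.29. Gpdh1, the glycerol-3-phosphate dehydrogenase gene that links glycolysis with lipid synthesis, and Nhe3, a sodium-proton exchanger gene, were each lowest on replicate 3, at -1.48 and -1.06. On the other 3 arrays the values of Gpdh1 lay between -0.48 and -0.14 and those of Nhe3 between -0.28 and -0.21. The last genes of this end, CG13928, CG1607 and CG1640, had means between -0.62 and -0.54.

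Above 0 as deposited, CG13243 had 0.59, 0.53, 0.56 and 0.83, with a mean of 0.63 ± 0.14 (n = 4) that became -0.07 ± 0.74 once turned. CG2076 had 1.01, 0.21, 3.30 and 3.07, the dye-swapped arrays being far higher than the others. In a fit of probes with 1 symbol that took the 2 dye orientations apart, chosen after seeing the data, CG2076 was the 1 gene of 309 past the threshold on the dye-swapped pair (limma's adjusted p 0.024), and 0 of 284 passed on the Cy5-treated pair. Over all probes the same fit called 0 of 1167 and 0 of 1097 (0.0% each), with 79 probes at an unadjusted p under 0.05 in either pair. RpL17, a large-subunit ribosomal protein gene, had 0.34, 0.46, 0.04 and 0.78. The gene t, or tan, which frees histamine, the photoreceptor transmitter, from its carrier form, had 0.30, 0.31, 0.53 and 0.24. CG6923, CG12863, Theg, CG8607, CG14757 and CG3713 made up the rest of this end, with means from 0.35 to 0.86. Adjusted p-values of the 20 genes in this reading lay between 0.592 and 0.714.

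**Figure D3:**
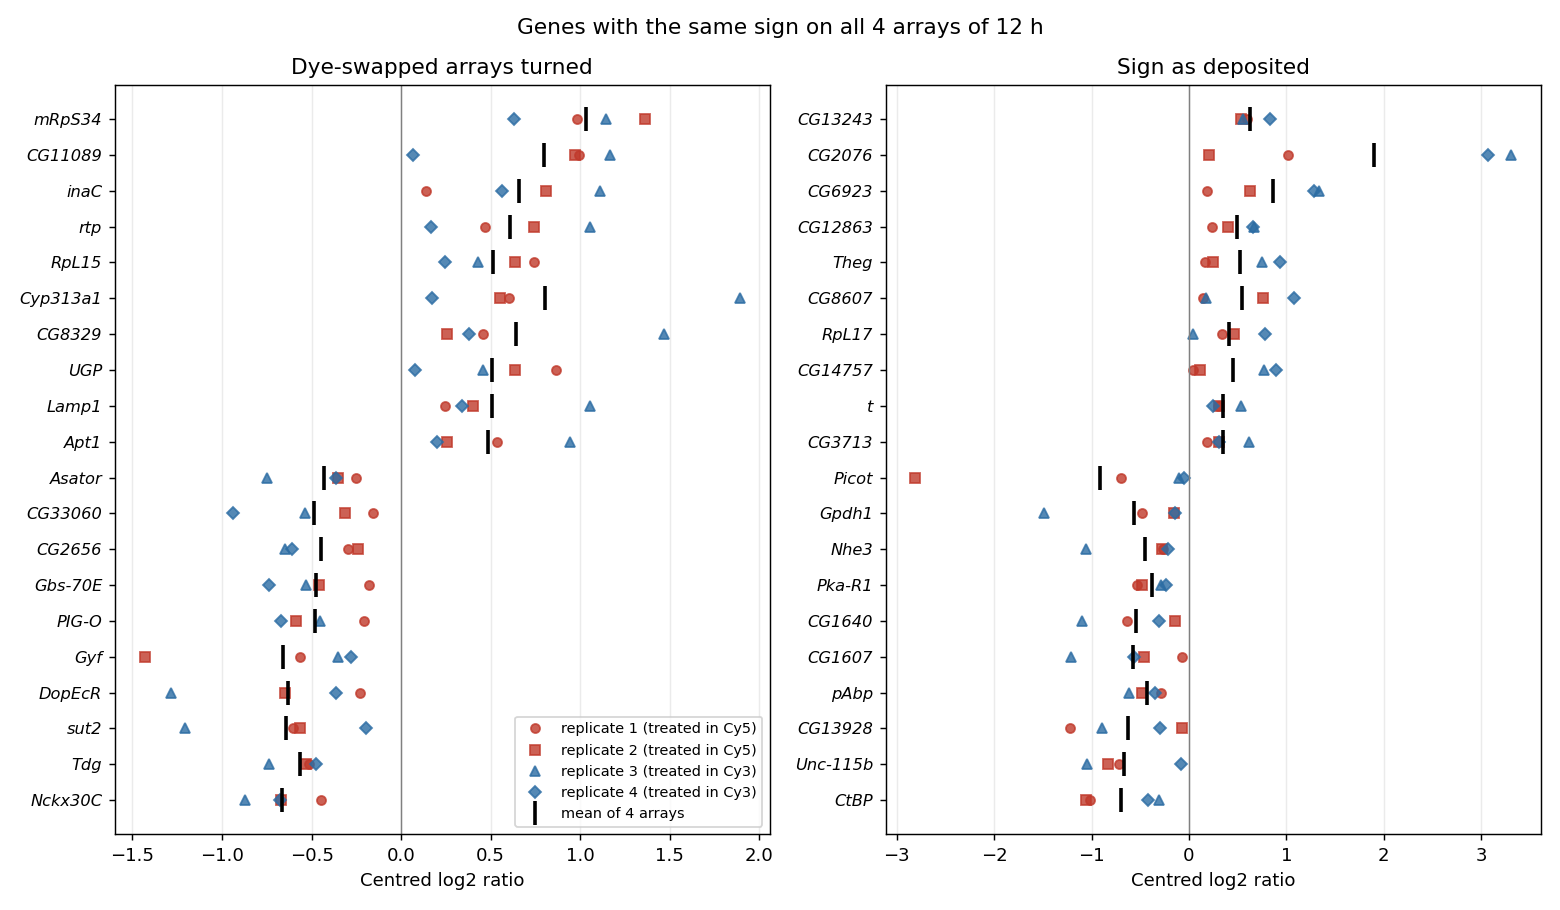
Centred log2 ratios (x axis) of the 20 genes named by rule in each reading, with the dye-swapped arrays turned (left) and the sign as deposited (right). Red symbols are replicates 1 and 2 (treated in Cy5), blue symbols replicates 3 and 4 (treated in Cy3) and the black bar the mean of 4 arrays; replicate 3 often lies furthest out, as for Cyp313a1 at 1.89 turned.

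Functional groups were compared with the named genes as a whole, of which 165 of 335 had a mean above 0 in the turned reading (median -0.01) and 189 as deposited (median 0.05). On the Cy5-treated arrays 176 of 335 had a mean above 0 (median 0.03), and among all probes with both values 31.1% were above 0 on both arrays and 29.9% below on both. On both dye-swapped arrays as deposited, 35.1% of probes were above 0 and 22.3% below. The medians over all 1283 probes were -0.05 turned and 0.05 as deposited. No gene of any group passed the test.

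Eye genes were above 0 on replicate 2 but mixed on replicate 1. Of 7 phototransduction and retina genes, 3 were above 0 on replicate 1 (median -0.06) and 7 on replicate 2 (median 0.37), so the Cy5-treated mean was above 0 for 6 (median 0.25). In the turned reading 4 had a mean above 0 (median 0.14, and 0.02 without replicate 2). As deposited 3 did (median -0.04), and without replicate 1 or replicate 3 that median was above 0, at 0.11 and 0.13. inaD, the scaffold that holds the light-activated signalling complex, had 0.12, 0.48, -0.19 and 0.24. rdgC, a phosphatase that dephosphorylates rhodopsin, had -0.21, 0.71, -0.62 and -0.48, and trpl, a light-gated cation channel gene, had -0.06, 0.37, -1.63 and -0.13. Replicates 1 and 2 differed for both, since only replicate 2 was clearly above 0. Galphaq, the G protein that rhodopsin activates, had -0.12, 0.26, 0.88 and 0.63, opposite to inaC and trpl on the dye-swapped arrays. Arr1, an arrestin that binds active rhodopsin, had -0.49, 0.12, -0.40 and 0.60, with no common direction. Another 4 eye genes, grouped after their names were seen, had Cy5-treated means above 0, at a median of 0.29: besides rtp these were rdhB, a retinol dehydrogenase of visual pigment synthesis, Xport-A, a chaperone of rhodopsin and TRP, and inaF-D. Their turned median was 0.35, and their median as deposited was 0.01.

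Genes of synaptic release lay below 0 on replicate 2 and were split on replicate 1, where 2 of 4 were above 0. All 4 that were measured, of 28 on the array, had a Cy5-treated mean below 0 (median -0.28), 3 of 4 did in the turned reading (median -0.08) and 4 of 4 as deposited (median -0.22). Rab3, a GTPase of synaptic vesicles, had -0.92, -0.16, -0.29 and -0.20, and replicate 1 lay lowest. Sap47, a synapse-associated protein gene, had -0.35, -0.23, -0.05 and 0.44. alphaSnap, which helps to take apart fusion complexes, had 0.04, -0.57, -0.67 and -0.23, and unc-13, a vesicle priming factor, had 0.23, -0.39, 0.20 and -0.33. Of these 4 genes Rab3 alone had 1 sign on all 4 arrays, as deposited.

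The genes closest to the targets of the drugs were mostly not measured. Lcch3, a GABA receptor subunit gene, had a value on 1 array and Gad1, the gene of the GABA-making enzyme, on 2 arrays, at 0.05 on replicate 2 and -1.02 on replicate 3. Of 40 genes of transmitter synthesis, receptors and transporters on the array 8 were measured. Their means were above 0 for 2 in the turned reading (median -0.19), for 4 as deposited (median -0.0047) and for 3 on the Cy5-treated arrays (median -0.18). The nicotinic acetylcholine receptor subunit gene nAChRbeta1 had -0.19, -0.25, 0.32 and 0.73, and with DopEcR it was of 1 sign on all 4 arrays once turned. Gs2, the glial glutamine synthetase gene, had -0.15, -0.70, -0.26 and 0.03, and the glutamate and aspartate transporter gene Eaat2 had -0.34, 0.03, -0.09 and -0.43. Hdc, which makes histamine, stayed within 0.34 of 0, at 0.18, -0.12, -0.26 and 0.34. GluClalpha, a glutamate-gated chloride channel gene, was measured on 3 arrays, at 0.04 and -1.35 on replicates 1 and 2 and 0.22 on replicate 4. The transporter-like gene ine and the adhesion gene Nlg3, a neuroligin, had means of -0.04 ± 0.37 (n = 4) and 0.56 ± 0.35 (n = 3) as deposited.

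Another 8 neuronal genes, grouped after their names were seen, had Cy5-treated means above 0 for 2 (median -0.22), and medians of -0.06 turned and -0.20 as deposited. hig, which encodes a protein of the synaptic cleft, had -0.65, -0.31, -0.90 and 0.30, and Nca, a neurocalcin calcium sensor gene, had -0.36, -0.09, 0.30 and 0.27. Slob, a protein that binds a calcium-activated potassium channel, was low on every array as deposited, at -0.10, -0.34, -0.17 and -0.13. Rtnl1, an endoplasmic reticulum protein gene of axons, ran the other way, at 0.21, 0.14, -0.67 and -0.91, and ringer, a microtubule-associated protein gene, had 0.40, 0.58, -0.47 and 0.65. The neuronal genes thus had no common direction, and the means of igl, Scamp and cmpy lay between -0.32 and 0.08 in the 2 readings.

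Few genes of ion transport and signalling were measured. Among 41 genes on the array listed as channels and exchangers only Nckx30C and Nhe3 were. The channel and receptor genes trpl, nAChRbeta1 and GluClalpha, given above, were counted in other groups. Vha44, a subunit of the vacuolar proton pump, had -0.37, -0.19, -0.16 and 0.25. In signalling, 4 of 5 genes had a mean below 0 in the turned reading (median -0.12) and 4 of 5 as deposited (median -0.16). S6k, a growth kinase of the TOR pathway, lay within 0.23 of 0 on every array, and flw, a protein phosphatase 1 subunit, had 0.34, -1.05 and 0.24 on replicates 2 to 4. CkIalpha, a kinase of the Wnt and Hedgehog pathways, had 0.20, -0.90 and -0.03 on replicates 1 to 3.

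Genes of the mitochondrial respiratory chain and ATP synthase had medians slightly above 0 in both readings. Over all named genes the medians were -0.01 turned and 0.05 as deposited. Of 16 measured, 13 had a mean above 0 turned (median 0.10), 10 as deposited (median 0.10) and 10 on the Cy5-treated arrays (median 0.16). ATPsynbeta, the catalytic subunit of ATP synthase, had 0.55, 0.67, -1.02 and 0.02, the highest Cy5-treated mean of the group at 0.61. ATPsynB, of the stalk of the enzyme, was above 0 on all 4 arrays as deposited, at 0.23, 0.37, 0.30 and 0.10. So were ATPsynE and the complex I gene ND-B17.2, with means of 0.17 ± 0.16 and 0.26 ± 0.20 (n = 4). SdhD, of succinate dehydrogenase, had 0.45, 0.01, -0.31 and 0.27, while COX4, of cytochrome oxidase, had 0.48, -0.55, -0.33 and 0.09. ND-13B, also of complex I, was the lowest in the turned reading, at -0.65 ± 0.48 (n = 3). By array, the group had medians of 0.14, 0.07, -0.17 and 0.20, against -0.0025, 0.09, -0.16 and 0.22 over all named genes, so it stood clear of the middle only on replicate 1. The turned median was 0.01 without replicate 3, and the median as deposited was 0.04 without replicate 1.

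Of 29 genes on the array listed for the TCA cycle and mitochondrial carriers, 4 were measured. All 4 had Cy5-treated means above 0 (median 0.33) and turned means above 0 (median 0.32). They do not stand for the TCA cycle. Mdh1, malate dehydrogenase, had 0.74, 0.82, -0.53 and 0.36, and Mpcp2, the mitochondrial phosphate carrier, had 0.39, 0.53, -0.83 and 0.26. Men-b, a malic enzyme gene, had 0.02, 0.39, -0.56 and -0.14, and Gdh, glutamate dehydrogenase, had 0.19, 0.09, -0.42 and 0.14. All 4 genes were below 0 on replicate 3 as deposited, and 3 of 4 were above 0 on replicate 4. Their median as deposited was 0.04. Another 6 mitochondrial genes, grouped after their names were seen and among them the fusion gene Marf, the iron-sulphur cluster scaffold IscU and the carriers Mtch and Sfxn1-3, had Cy5-treated means above 0 for 2 (median -0.09).

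Genes of sugar and glycogen metabolism were mixed. Of 6 measured, 5 had a mean above 0 turned (median 0.20, and 0.02 without replicate 3), 3 as deposited (median -0.05) and 2 on the Cy5-treated arrays (median -0.08). Glyp, glycogen phosphorylase, had -0.08, -0.01, -1.98 and -0.50, and Tpi, triosephosphate isomerase, had 0.30, -0.53, -0.71 and 0.08. The large turned mean of Glyp, 0.59 ± 0.96, came from the dye-swapped arrays, since both Cy5-treated values were close to 0. Gapdh1, of glycolysis, had 0.30, 0.11 and -0.05 on replicates 1 to 3.

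Cytosolic ribosomal protein genes lay above the middle of the named genes on both Cy5-treated arrays. All 6 measured had a Cy5-treated mean above 0 (median 0.33), and 5 had a mean above 0 in each reading (medians 0.14 turned and 0.20 as deposited). RpS7 was the most even, at 0.34, 0.30, 0.09 and 0.23, RpL3 had 0.46, 0.09, -0.06 and 0.41, and RpL27 had 0.56, 0.12, -0.24 and 0.11. RpL15 and RpL17, given above, differed on the dye-swapped arrays, where RpL15 was below 0 and RpL17 above. RpS15Ab, which has a near-identical copy elsewhere in the genome whose RNA may bind the same probe, had -0.05, 0.25, -1.0 and 0.26. The medians of the group by array were 0.40, 0.28, -0.15 and 0.25, beside -0.0025, 0.09, -0.16 and 0.22 over all named genes. Without replicate 1 the medians of the group were 0.04 turned and 0.07 as deposited. The other mitochondrial ribosomal protein gene measured, mRpS24, ran opposite to mRpS34, at -0.17, -0.14, 0.86 and 0.52.

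Translation factors lay on opposite sides of 0 in the 2 readings. Of 7 measured, 6 had a mean above 0 turned (median 0.25), but 3 as deposited (median -0.29) and 3 on the Cy5-treated arrays (median -0.02). eIF4A, the helicase that unwinds the start of mRNAs, had 0.13, -0.97, -0.75 and -0.14. eIF3g1, a subunit of initiation factor 3, had 0.66, 0.69 and 0.82 on replicates 2 to 4, and was above 0 on each of these as deposited. eEF5, a translation elongation factor, had 0.49, 0.63 and 0.09 on replicates 1, 2 and 4. Without replicate 3 the turned median of the group was -0.08, and as deposited it was 0.02.

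**Figure D4:**
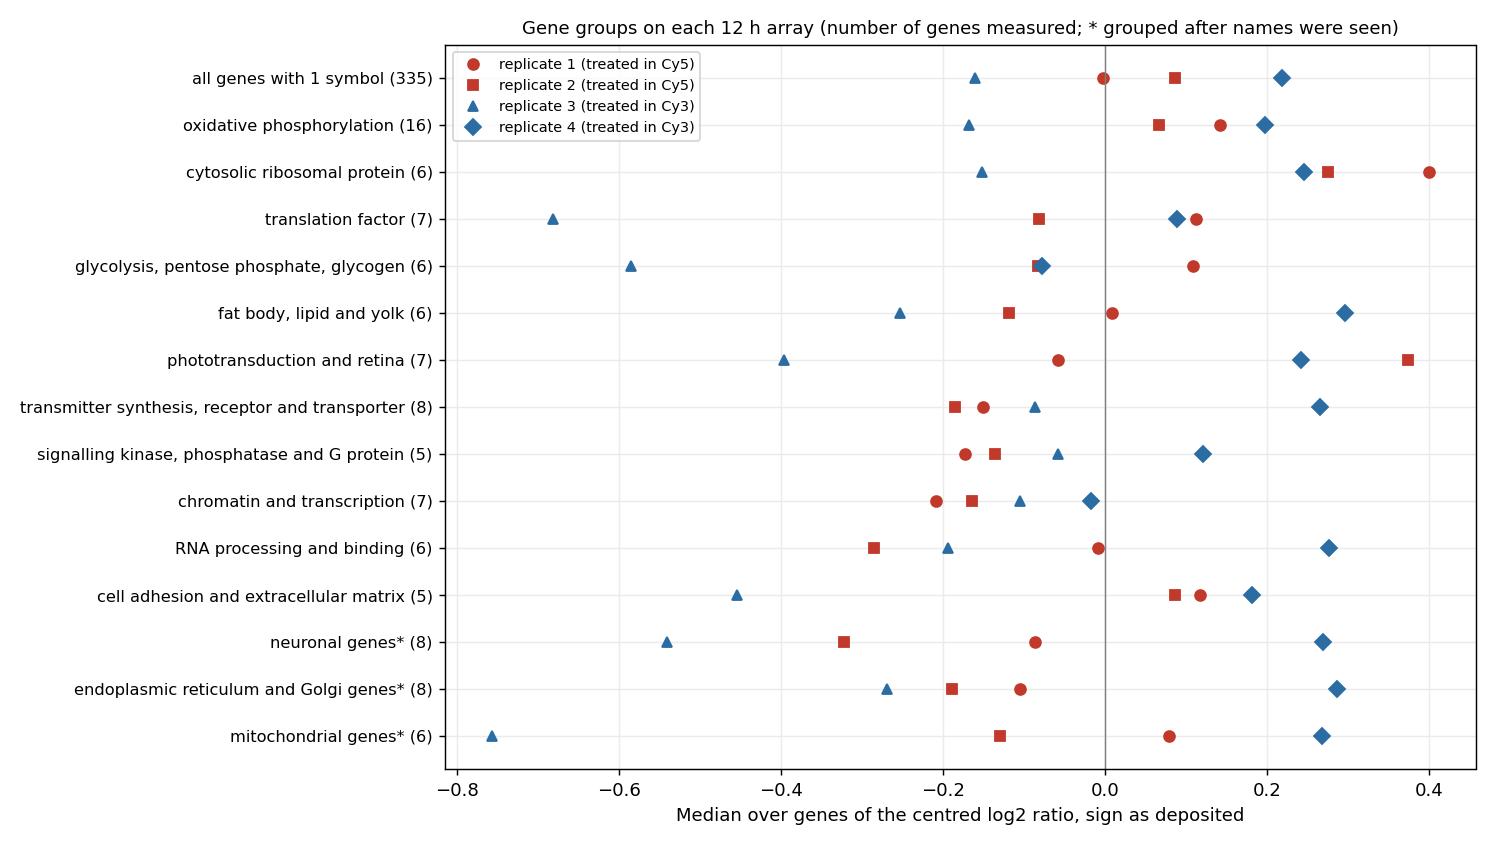
Median centred log2 ratio over the genes of each group with at least 5 measured genes (x axis, sign as deposited) on each 12 h array; red symbols are replicates 1 and 2 (treated in Cy5) and blue symbols replicates 3 and 4 (treated in Cy3). Replicate 3 lies left of 0 in every group shown, and replicate 4 lies right of 0 in all but sugar metabolism and chromatin; cytosolic ribosomal proteins have the highest medians on replicate 1 (0.40).

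Detoxification and redox genes were few. Among 74 P450 genes on the array 3 were measured: besides Cyp313a1 these were Cyp28d1, at 0.44, 1.01, 0.43 and -1.24, and Cyp6d5, at -0.09, -0.33, -0.49 and 0.21. Cyp28d1 was high on both Cy5-treated arrays, with a mean of 0.72, while its dye-swapped arrays had opposite signs. The glutathione transferase genes GstE12, GstE13 and GstT3 had Cy5-treated means of 0.33, 0.17 and 0.51, the last from 1 array. Trxr1, thioredoxin reductase, Sesn, the stress-induced sestrin gene, and TrxT, a thioredoxin gene known from testis, had Cy5-treated means of 0.44, 0.34 and 0.22. Sesn had 0.36, 0.31, -0.12 and 0.29, and TrxT had 0.19, 0.25, -0.82 and 0.27, each lowest on replicate 3. All 3 had turned means above 0, with a median of 0.23, and 2 of 3 did as deposited (median 0.21).

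Genes of protein folding and breakdown had no common direction. The chaperone genes DnaJ-1, Droj2, Cnx99A and Hsp60C had turned means from -0.18 to 0.18. Hsp60C, a mitochondrial chaperonin gene, had 0.59, -0.03 and 0.95 on replicates 2 to 4, so its mean as deposited was 0.50 ± 0.50 (n = 3). DnaJ-1, an Hsp40 co-chaperone gene raised by heat shock, had -0.19, 0.19, -0.15 and -0.06. The ubiquitin gene Ubi-p5E had 0.41, 0.41, -0.45 and 0.32, Prosbeta3, of the proteasome core, had 0.08, 0.43, -0.16 and 0.42, and Rpn12, of its lid, had -0.42, 0.43, -0.28 and 0.58. Ubi-p63E, another polyubiquitin gene, whose repeats may bind the same RNA as Ubi-p5E, had 0.09, -0.42, -0.18 and -0.34.

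Genes of the fat body, immunity and the antenna gave no common direction. Of 6 fat body, lipid and yolk genes, 2 had a mean above 0 in each reading (medians -0.14 turned and -0.04 as deposited). These 6 included Npc2b, given above as a midgut marker. apolpp, the blood lipid carrier made by fat body, had -0.61, -0.77, -0.96 and 0.05, and the yolk protein gene Yp2 had -0.09, -0.31, 0.11 and 0.18. Hnf4, a nuclear receptor of lipid use, had 0.09, -0.16, 0.63 and 0.69. The immune genes BomT2 and SPE, a Bomanin peptide and a protease that activates the Toll ligand, had 0.25, 0.71, -0.79 and 0.23, and 0.21, -0.34, -0.37 and 0.02. Idgf6, a chitinase-like growth factor gene, had 0.33, -1.30 and -0.44 on replicates 2 to 4. Odorant-binding protein genes included Obp56d, at 0.10, 0.39, -0.34 and 0.65, and Obp59a, whose values on replicates 3 and 4, -2.79 and 1.45, were far apart. The actin genes Act79B and Act88F, which share near-identical sequences with other actin genes, had turned means of 0.10 ± 0.40 and 0.20 ± 0.44 (n = 4).

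Genes of membrane traffic were below 0 on replicate 1, and all but Rab39 were on replicate 2. All 4 measured had Cy5-treated means below 0 (median -0.46), that of Rab39 being -0.03, 3 of 4 had turned means below 0 (median -0.19), and all 4 did as deposited (median -0.29). Besides Rab3 these were Sec22, a fusion protein of the endoplasmic reticulum and Golgi, at -0.57, -0.57 and -0.13 on replicates 1, 2 and 4, Snx1, a sorting nexin of the retromer, at -0.38, -0.38, 0.09 and 0.04, and Rab39, at -0.58, 0.52 and -0.50 on replicates 1 to 3. Of 8 endoplasmic reticulum and Golgi genes grouped after their names were seen, 4 had a Cy5-treated mean above 0 (median -0.11). lva, a Golgi matrix protein gene, was lowest, at -0.87, -1.22 and -0.20 on replicates 1, 2 and 4, while the vesicle fusion gene Slh had 1.09, 0.34 and 0.64 on replicates 2 to 4.

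In the nucleus, 5 of 7 chromatin and transcription genes had turned means below 0 (median -0.16) and 3 of 7 did as deposited (median 0.07). EcR, the ecdysone receptor, had -0.56, -0.16, -0.41 and 0.37, and its coactivator tai had 0.26, -0.36, -0.35 and -0.02. crc, the fly ATF4 of the stress response, had 0.14, 0.10, 1.20 and -0.32. Polr2E, an RNA polymerase subunit gene, had 1.48, 1.22 and -0.06 on replicates 2 to 4. RNA-binding genes were below 0 on the Cy5-treated arrays for 5 of 6 (median -0.20). The RNA-binding gene mub had -0.31, -0.42, 0.62 and 0.13, Hrb87F had -0.00, -0.35, 0.55 and 0.47, and the splicing factor Prp18 was the exception, at 0.45, 1.08, -0.40 and 0.20. orb2, which regulates translation in memory, had -0.07, -0.07, -0.60 and 0.54. Among genes of mRNA decay, also grouped after their names were seen, gw, of microRNA silencing, had -0.19, -0.44, -0.75 and 0.10 and the decapping enzyme DCP2 had -0.11, -0.29, -0.03 and 0.55.

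Outside the groups stood 174 genes, many without a given name. Of these, 69 had a turned mean above 0 (median -0.08), 109 a mean above 0 as deposited (median 0.11) and 91 a Cy5-treated mean above 0 (median 0.03). The 161 genes inside a group gave 96, 80 and 85, with medians of 0.05, -0.0018 and 0.02. The groups' genes and the others thus differed in direction between the readings by their values on the dye-swapped arrays, where the medians were -0.31 and 0.17 for genes in a group and 0.02 and 0.27 for the others.

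The later times tell whether a value at 12 h was also found there. No probe passed limma's test of a difference between 12 h and 2 d (0 of 855, 0.0%) or between 12 h and 7 d (0 of 736, 0.0%) in either reading. Unadjusted p-values under 0.05 numbered 31 and 32 in the turned reading and 43 and 33 as deposited. The genes of both ends were chosen by their values at 12 h. A smaller or opposite mean of such a gene at a later time therefore does not show a change with time. mRpS34 had turned means of -0.23 ± 1.15 at 2 d (n = 3 arrays) and -0.04 at 7 d (n = 3), and its difference from 2 d was 1.26 with limma's adjusted p at 0.995. rtp and Lamp1 had turned means of -0.14 ± 0.33 and -0.13 ± 0.29 at 2 d (n = 4), below those at 12 h by 0.75 and 0.64, and of 0.26 and 0.25 at 7 d (n = 3). Cyp313a1 lay at -0.40 ± 0.74 at 2 d (n = 4), a difference of 1.21, and at -0.11 at 7 d (n = 3). CG11089 was above 0 at 12 h and at 2 d, where it had 1.02 ± 0.74 turned and 0.86 ± 1.01 as deposited (n = 3). At 7 d it had values on only 2 arrays, so no mean is given. Genes of the groups were uneven between the times. As deposited, RpS7 had a mean of 0.23 ± 0.11 at 2 d, beside 0.24 ± 0.11 at 12 h (n = 4 each). ATPsynB had 0.20 ± 0.05 beside 0.25 ± 0.12 as deposited, but -0.04 ± 0.24 beside 0.05 ± 0.31 turned. ATPsynE had -0.65 ± 0.57 at 2 d (n = 3) beside 0.17 ± 0.16 at 12 h as deposited, and ATPsynO had -0.27 ± 0.54 beside -0.0036 ± 0.22. Of the 10 genes of the lower end in the turned reading, Gbs-70E alone was measured at 2 d, with a mean of -0.62 ± 0.75 turned (n = 4) and -0.61 ± 0.75 as deposited. At 7 d, 3 of the 10 had values on at least 3 arrays, and their turned means lay on the other side of 0 from those at 12 h. They were 0.42 ± 0.63 for Gbs-70E and 0.16 ± 0.36 for CG2656 (n = 3 each), and 0.16 ± 0.26 for CG33060 (n = 4). As deposited the same genes had -0.35, -0.18 and 0.16 at 7 d.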

How the data were processed

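Per the labels and the series' design text, head RNA was hybridised in 2 colours to cDNA arrays, scanned and quantified with GenePix Pro 6.0, and ratio-normalised with Acuity 4.0 by the authors, who then filtered spots on saturation, flags and signal. The deposited values are log2 ratios. The log base follows from the top value, 16.61, the end of the software's range, and scale was kept. Which way the ratios run is not stated there. Scanner intensities were not used here, so signal over background is unknown. Deposited array medians of replicates 1 to 4 were -0.08, 0.85, -0.69 and -0.56.

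From these, adjacent spots were averaged, arrays centred on their median, and probes valued on 3 or 4 arrays tested in limma 3.58.1 (R 4.3.3; lmFit and eBayes, two-sided, mean against 0), adjusted by Benjamini-Hochberg over all probes, threshold 0.05, in both readings. The fit was tested on simulated data. Recovery of changes was required there only at a spread smaller than that of these arrays. Contrasts between times used all 12 arrays. Of the probes, 7558 had 1 symbol, 51 several and 6215 none; 7447 symbols were updated with RefSeq Release 6 names. A gene with several probes is given by the one on most arrays. Replicates 3 and 4 are unnumbered in the labels, and their numbers here follow the order of deposition.

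Named genes were, per reading and direction, the 10 of smallest p with the same sign on all 4 arrays, up to 10 members of each group with at least 3 measured genes, genes past 1 log2 unit on both Cy5-treated arrays, and tissue markers and drug-target genes with values. The members and lists were chosen with earlier results of these data known. After the names were seen, Droj2 was taken out of the immune list, Glyp was added to sugar metabolism, RpL24-like was taken out of the cytosolic ribosomal proteins, and the groups said to be so were added. Alternatives changed centring, the probe filter, duplicate spots, the test and the arrays used.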

Additional observations from a re-analysis of the deposited data

Results flagged for a closer look

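Among the named genes measured on all 4 arrays, 136 were tested for a lone array far from the other 3 (Dixon's ratio above its critical value) in both readings. Chance flags about 1 in 20 groups of values. Of 272 such tests 12 were positive, 8 of them by replicate 3, 3 by replicate 4 and 1 by replicate 1.

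In the turned reading, replicate 3 stood apart at 1.47 for CG8329 (others 0.26 to 0.46), at -1.20 for crc (others 0.10 to 0.32) and at 0.50 for Golgin84 (others 0.08 to 0.14). Replicate 4 stood apart at -0.35 for ATPsyngamma (others 0.13 to 0.20), at -0.32 for Ubi-p5E (others 0.41 to 0.45) and at -0.65 for ringer (others 0.40 to 0.58).

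As deposited, replicate 3 was lowest at -1.06 for Nhe3 (others -0.28 to -0.21), at -0.42 for Gdh (others 0.09 to 0.19), at -0.12 for Sesn (others 0.29 to 0.36), at -0.82 for TrxT (others 0.19 to 0.27) and at -0.45 for Ubi-p5E (others 0.32 to 0.41). Replicate 1 was lowest for Rab3, at -0.92 (others -0.29 to -0.16).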

How the results depend on the processing

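Under every alternative named in the processing, 0 probes passed in the turned reading, except 1 of 1283 in the fit on all 12 arrays, and 0 as deposited, except 1 without centring; both probes have no single gene symbol. A fit of the 341 probes with 1 symbol called 0 in both readings, and leaving out 1 array gave 0 to 5 as deposited, the 5 (CG14960, CG2076, Fie, CG18809 and nahoda) without replicate 2, where the fit gave nearly all probes 1 common SD (prior degrees of freedom 979). In the dye-swapped pair it called 1 of 309. The left-out arrays in that fit and the split by dye orientation were chosen after seeing the data. Unadjusted p-values under 0.05 numbered 110 without centring in the turned reading, beside 58. The contrasts between times stayed at 0. For these contrasts, no paired analysis was possible because replicates 3 and 4 of 12 h have no number in the labels to match them by. Each array is itself a ratio of a treated and a control pool. The test of a mean against 0 therefore already takes in the pairing of the pools on an array.

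Without centring, the medians of all named genes in the turned reading were 0.54, of oxidative phosphorylation 0.63, cytosolic ribosomal proteins 0.65, translation factors 0.74, sugar metabolism 0.69, fat body 0.37, phototransduction 0.64, transmitter genes 0.41, signalling 0.38, chromatin 0.35, RNA binding 0.39, adhesion 0.60, neuronal genes 0.45, endoplasmic reticulum and Golgi 0.53 and added mitochondrial genes 0.61, and the share of the same sign on 4 arrays was 32.9% turned and 3.17% as deposited. PIG-O, Gbs-70E, CG2656, CG33060 and Asator then lay at 0.026, 0.028, 0.057, 0.019 and 0.077. With the first spot of a pair, transmitter genes had -0.031 turned and signalling 0.061 as deposited. Chromatin genes as deposited had -0.070 without centring, -0.15 on all 4 arrays, -0.026 with both spots, -0.097 with agreeing spots and -0.046 to 0.19 leaving out 1 array. Leaving out 1 array gave -0.21 to -0.032 for transmitter genes and -0.22 to -0.0029 for signalling, both turned.

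In the other reading, genes of the turned ends had inaC -0.18, rtp -0.0018, Cyp313a1 -0.23, CG8329 -0.28, Lamp1 -0.19, Apt1 -0.087, Nckx30C 0.11, Tdg 0.041, sut2 0.059, DopEcR 0.19, PIG-O 0.083, Gbs-70E 0.16, CG2656 0.18, CG33060 0.25 and Asator 0.13. Genes of the deposited ends had CG13243 -0.067, CG2076 -1.29, CG6923 -0.45, CG12863 -0.17, Theg -0.32, CG8607 -0.086, RpL17 -0.0041, CG14757 -0.38, t -0.041, CG3713 -0.11, pAbp 0.048, CG1607 0.31, CG1640 0.16, Nhe3 0.18 and Gpdh1 0.25. The cause was not tested. With 4 arrays and duplicate spots that differed by over 1 in 19.1% to 40.8% of pairs, small differences were not detectable. Means past 1 log2 unit did not pass the test over all probes either, as for CG2076 at 1.9 ± 1.5 as deposited (n = 4). The absence of calls therefore does not show that larger changes were absent.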
